A study of Homo sapiens with 6 samples.

Results

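The genes for the CD1 antigen-presenting family and for the CD4 and CD8 coreceptors were examined in the human leukaemia line CUTLL1 (established from T-cell acute lymphoblastic leukaemia, T-ALL) after knockdown of the mitotic kinase gene AURKB. The members were chosen by name, with earlier results of these data known. They are CD1A, CD1B, CD1C, CD1D, CD1E, CD4, CD8A and CD8B, 8 of the 50868 genes measured. Of these, 7 had enough reads to be among the 14818 genes tested, and CD8B did not. The groups, of 3 biological replicates each, are CUTLL1 cells with lentiviral short hairpin RNA (shRNA) either to AURKB (shAURKB) or to GFP by its name, the control (shGFP). Cells of both groups were under puromycin, and RNA was taken after 48 h. The study used this single line, and the labels do not say which AURKB hairpin was used.

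During development in the thymus, T cells pass from a stage with neither coreceptor, through a cortical stage at which CD4 and CD8 are made together, to mature cells that keep one of them. CD4 binds MHC class II and CD8 binds MHC class I, and the tail of each carries the kinase LCK to the T-cell receptor. CD1 proteins resemble MHC class I heavy chains, pair with beta-2-microglobulin and present lipids. CD1A, CD1B, CD1C and CD1E are made by cortical thymocytes and dendritic cells, and leukaemias that carry CD1a on the surface are described as cortical T-ALL.

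The deposited gene counts summed to 10154187 to 11922979 per library. Levels are given in CPM (counts scaled by library size and TMM factor), with the SD over 3 libraries. The summed levels of marker genes in this paragraph are the exception, as they are scaled by library size alone. The TMM factors left out of them were 1.0173 to 1.0204 in the controls and 0.9789 to 0.9837 with AURKB shRNA. The knockdown was visible in every library. AURKB stood at 100 (shGFP replicate 1), 97.0 and 107 CPM in the controls. It was at 39.8, 43.9 and 36.0 CPM with AURKB shRNA, a log2 fold change of -1.35 ± 0.08 (SE; edgeR adjusted p = 2.54e-04). All 7 T-cell identity genes were detected, and their summed level was 1490 to 1610 CPM in the controls and 1680 to 1800 CPM with AURKB shRNA. Among these, CD3D, CD3E and CD2 were called higher (log2 fold changes 0.17, 0.21 and 0.18), against 12.5% of tested genes, and none of the 3 calls held with upper-quartile scaling (adjusted p = 0.103, 0.0886 and 0.119). Dendritic and monocyte genes, whose cells also make CD1C and CD4, summed to 1.34 to 2.46 CPM in the controls and 1.48 to 2.32 CPM with AURKB shRNA; 5 of 9 (LYZ, FCER1A, CLEC10A, FCGR3A and S100A8) had no read in any library, and CD68 was the single one tested (log2 fold change 0.17, adjusted p = 0.725). B-cell genes summed to 23.9 to 27.9 CPM in the controls and 22.2 to 27.4 CPM with AURKB shRNA, most of it CD79A (log2 fold change -0.22, adjusted p = 0.158), with MS4A1 and PAX5 at 0 in every library. NK-cell genes summed to 10.9 to 12.2 and 8.5 to 9.09 CPM, nearly all NKG7 (-0.36, adjusted p = 0.0458, lost in 9 of 16 alternative analyses), and NCAM1 and KLRD1 were at 0. One control library stood apart: the 9 fibroblast and epithelial genes summed to 18 CPM in shGFP replicate 1, almost all COL1A2, against at most 1.12 CPM in the shAURKB libraries, with COL3A1, DCN, LUM, KRT5 and KRT14 at 0 throughout.

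Among the 7 tested members CD4 fell furthest, and CD1B, CD1C and CD1E fell by smaller amounts, while no member rose (edgeR, DESeq2 and limma-voom each called 0 higher, and 0 had a higher level at an unadjusted p under 0.05). Of the 7 tested members 4 were called lower (57.1%), against 10.9% of all tested genes. Over all tested genes 1847 were called higher and 1609 lower, a split that upper-quartile scaling turned to 1325 higher and 2087 lower. The arms did not overlap for 5 of the 7, against 42.6% of tested genes. As the members were chosen with earlier results of these data known, these shares are a description and not independent support. CD1A, CD1D and CD8A were not called. The members' median log2 fold change was -0.36, beside -0.0042 over all tested genes. The plot of all 8 genes by library shows these values.

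**Figure D1:**
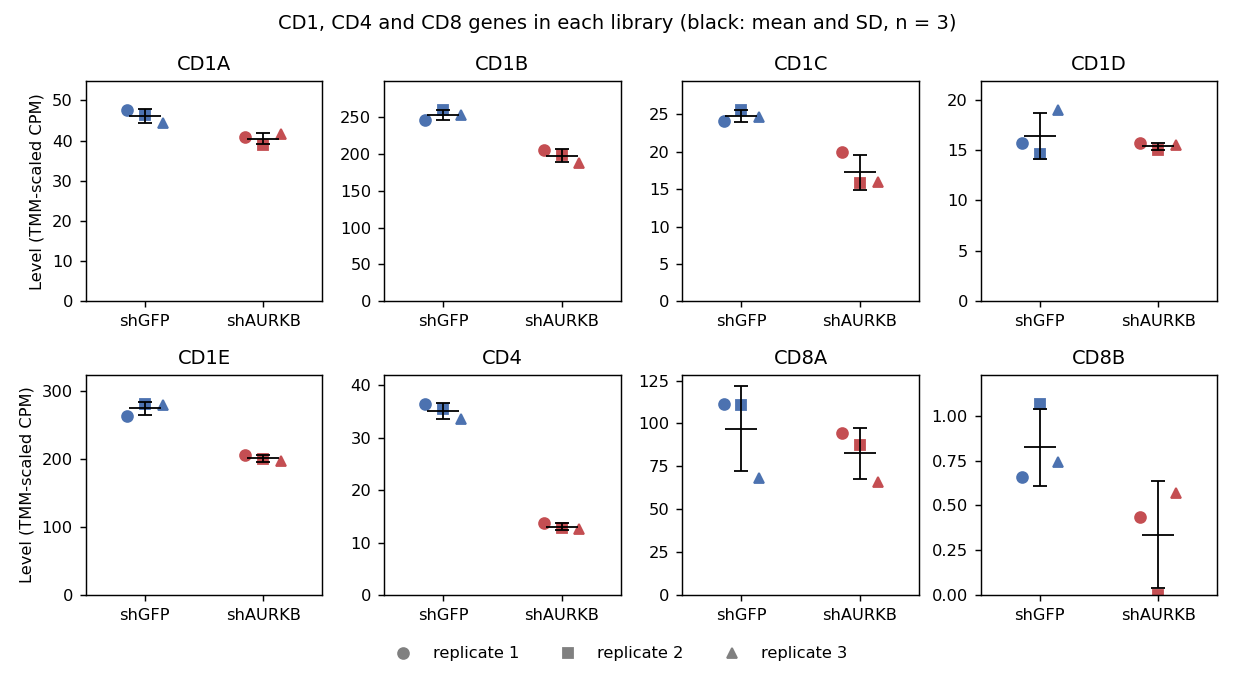
Level of each gene in TMM-scaled CPM (vertical axes, starting at 0) in the 3 shGFP and 3 shAURKB libraries. Points are libraries, with the marker giving the replicate number, and black bars are the mean and SD; the arms are apart for CD1A, CD1B, CD1C, CD1E and CD4, and replicate 3 is the lowest CD8A library of both arms.

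CD4 encodes the coreceptor for MHC class II (ENSG00000010610, GRCh38 chromosome 12, 6786858 to 6820808, plus strand). Its level was 36.5, 35.4 and 33.6 CPM in shGFP replicates 1 to 3 and 13.8, 12.9 and 12.5 CPM in shAURKB replicates 1 to 3. Every shAURKB library lay far below every control, and the replicates of each arm were close together. The means were 35.2 ± 1.51 and 13.0 ± 0.633 CPM (SD, n = 3), resting on 1158 and 421 reads. The fitted log2 fold change was -1.43 ± 0.08 (SE), with a 95% interval of -1.61 to -1.25, so 37.1% of the control level remained (edgeR, adjusted p = 1.61e-04). By size, it was number 109 among the 1609 genes called lower, close to AURKB itself at 128. The call held in all 16 alternative analyses, and the value was -1.40 without shGFP replicate 1, the control library that stood apart. In bulk RNA, fewer cells that make a transcript and less transcript per cell cannot be told apart.

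The genes whose pattern over the 6 libraries was most like that of CD4, by Pearson correlation of log2 CPM, were SMAD3 (r = 0.9991), SMCHD1 (0.9988) and KLF12 (0.9985). SMAD3 encodes a transducer of TGF-beta signals, SMCHD1 a chromatin protein of the inactive X chromosome, and KLF12 a zinc finger repressor. Their log2 fold changes were -0.36, -0.24 and -0.38, and the call of SMAD3 was lost with DESeq2 and with unfiltered FPKM. These correlations reflect the separation of the arms, which many genes share, and are a description of 6 libraries only.

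CD8A encodes the alpha chain of the MHC class I coreceptor (ENSG00000153563, chromosome 2, 86784610 to 86808396, minus strand). It was at 112, 111 and 68.4 CPM in shGFP replicates 1 to 3 and at 94.3, 87.7 and 65.6 CPM in shAURKB replicates 1 to 3. Replicate 3 was the lowest library in both arms, and the arms overlapped. The log2 fold change of -0.23 ± 0.21 (SE) was not called (edgeR adjusted p = 0.473), and its 95% interval of -0.73 to 0.27 reaches from a clear fall to a rise. Without shGFP replicate 3 the estimate was -0.43, and without shAURKB replicate 3 it was -0.09.

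CD8B encodes the beta chain that pairs with CD8A in most thymocytes (ENSG00000172116, chromosome 2, 86815339 to 86861924, minus strand). Its reads numbered 7, 11 and 9 in the controls and 5, 0 and 6 with AURKB shRNA. Every shAURKB library had fewer reads than every control, but all counts were low and the gene was below the filter of the test. The totals of 27 and 11 reads give a ratio of 0.403 with an exact 95% interval of 0.18 to 0.839, which covers counting error only. The library with no read could hold up to 0.287 CPM.

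The balance of the coreceptor transcripts moved with CD4. Per kilobase of exon, CD8A exceeded CD4 by 3.86, 3.95 and 2.57-fold in shGFP replicates 1 to 3 and by 8.65, 8.59 and 6.61-fold in shAURKB replicates 1 to 3. The arms did not overlap, and in each arm replicate 3 had the smallest excess, as its CD8A level was the lowest. The log2 ratio of CD4 to CD8A was -1.76 ± 0.348 in the controls and -2.98 ± 0.221 with AURKB shRNA (SD, n = 3), a difference of -1.22 ± 0.24 (SE, no test).

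**Figure D2:**
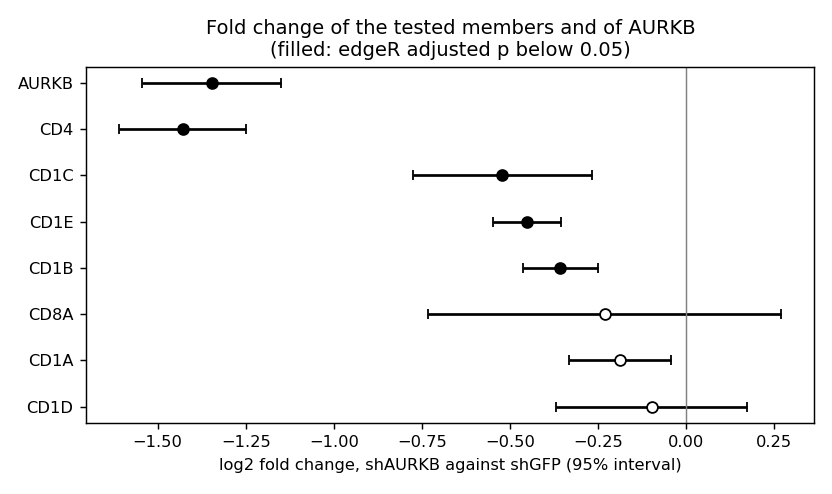
Log2 fold change of shAURKB against shGFP (horizontal axis) for the 7 tested members and AURKB, with 95% intervals from the edgeR fit; filled points were called. CD4 and AURKB lie at -1.43 and -1.35, the 3 called CD1 genes between -0.52 and -0.36, and the intervals of CD8A and CD1D include 0.

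The CD1 genes lie side by side on chromosome 1 in the order CD1D, CD1A, CD1C, CD1B, CD1E. Their summed level was 597, 628 and 620 CPM in the controls and 488, 467 and 458 CPM with AURKB shRNA. The arms were apart, with means of 615 ± 16.4 and 471 ± 15.5 CPM (SD, n = 3), a ratio of 0.766. CD1E and CD1B supplied most of these reads, 44.7% and 41.1% in the controls.

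CD1E, whose product stays inside the cell and helps load lipids onto other CD1 proteins (ENSG00000158488, 158353696 to 158357553, plus strand), was at 264, 282 and 279 CPM in the controls. With AURKB shRNA it was at 206, 200 and 197 CPM, below each control. Its log2 fold change of -0.45 ± 0.04 (SE, 95% interval -0.55 to -0.36) left 73.1% of the control level (edgeR adjusted p = 7.97e-04). CD1B, which presents long-chain mycobacterial lipids (ENSG00000158485, 158327951 to 158331531, minus strand), was at 246, 260 and 253 CPM in the controls. It was at 206, 198 and 188 CPM with AURKB shRNA, again with no overlap. The log2 fold change was -0.36 ± 0.05 (95% interval -0.46 to -0.25), leaving 78.0% (edgeR adjusted p = 2.60e-03). CD1E and CD1B kept their calls in all 16 alternative analyses, with values of -0.48 and -0.38 without shGFP replicate 1.

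CD1C, which presents lipids to T cells including gamma-delta cells (ENSG00000158481, 158289786 to 158293630, plus strand), was at 24.1, 25.6 and 24.6 CPM in the controls. With AURKB shRNA it was at 19.96, 15.8 and 15.9 CPM, so the shAURKB libraries spread more widely but stayed below the controls. The log2 fold change of -0.52 ± 0.11 (95% interval -0.78 to -0.27) was called (edgeR adjusted p = 0.0154). Leaving out shGFP replicate 2 raised the adjusted p to 0.0501 and leaving out shAURKB replicate 3 to 0.0531, which ended the call. It held in the other 14 of 16 alternatives, with adjusted p from 0.00713 to 0.0497, and was 0.0409 without shGFP replicate 1.

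CD1A, the surface marker of cortical thymocytes (ENSG00000158477, 158254137 to 158258269, plus strand), was at 47.7, 46.4 and 44.4 CPM in the controls and 40.9, 39.0 and 41.5 CPM with AURKB shRNA. All shAURKB values lay below all control values, yet the difference was small. The log2 fold change of -0.19 ± 0.06 (95% interval -0.33 to -0.04) was not called (edgeR adjusted p = 0.0654). With upper-quartile scaling it was called at -0.24 (adjusted p = 0.0309), as it was in the 3 analyses of deposited FPKM. CD1D, which presents lipids to NKT cells and is also made outside the T lineage (ENSG00000158473, 158179947 to 158184896, plus strand), was at 15.7, 14.7 and 19.0 CPM in the controls and 15.7, 15.02 and 15.5 CPM with AURKB shRNA. The arms overlapped, and shGFP replicate 3 was the highest library. CD1D had a log2 fold change of -0.10 ± 0.11 (95% interval -0.37 to 0.17, edgeR adjusted p = 0.58), which turned to 0.02 without shGFP replicate 3.

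The share of CD1 reads from each gene shifted slightly between the arms. CD1E gave 44.2%, 44.9% and 45.04% of CD1 reads in the controls and 42.2%, 42.7% and 43% with AURKB shRNA. CD1A gave 7.51% ± 0.431 and 8.596% ± 0.409 (SD, n = 3), and CD1D gave 2.68% ± 0.368 and 3.27% ± 0.0944. These 3 shares did not overlap between the arms, whereas those of CD1B and CD1C did. Such shares are scores over the chosen genes and carry no test.

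RefSeq start-site windows were available for CD1A, CD1C, CD1D, CD1E and CD8A, 5 of the 8 members. For 3 of them, the called CD1C and CD1E and the uncalled CD1D, the stretch just before the annotated gene start is shown. CD1A and CD8A, also not called, are not shown. The stretches hold 113 bases for CD1C, 52 for CD1E and 250 for CD1D, so their marked cores cannot be compared between the genes. Coordinates are GRCh38.p14, all on the plus strand, 5′ to 3′, and capitals mark a GATA or RUNX core on either strand. The RUNX core searched was TGTGGT. The GATA core was AGATAA. An ETS core, GGAAGT, was searched too and lies outside the bases shown.
CD1C, chr1:158289673-158289785: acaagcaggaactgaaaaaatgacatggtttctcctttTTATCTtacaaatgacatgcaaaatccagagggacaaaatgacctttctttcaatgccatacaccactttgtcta
CD1E, chr1:158353644-158353695: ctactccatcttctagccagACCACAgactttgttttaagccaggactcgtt
CD1D, chr1:158179697-158179946: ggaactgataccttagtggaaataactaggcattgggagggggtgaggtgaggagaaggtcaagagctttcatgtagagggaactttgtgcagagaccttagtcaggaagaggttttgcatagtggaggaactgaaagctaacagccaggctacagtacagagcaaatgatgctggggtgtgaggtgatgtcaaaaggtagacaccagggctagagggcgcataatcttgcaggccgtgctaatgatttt
The GATA core in CD1C starts at -212 and the RUNX core in CD1E at -230, counted from the RefSeq start. Over the full 250 bases before the start, the RUNX core was found in 1 of the 5 members' windows, the GATA core in 1 and the ETS core in 2, CD1C and CD1E. Among all 35116 RefSeq windows of that length, 11%, 9.17% and 19.5% held these cores. The E-box CANNTG was in 4 of the 5 windows, against 61.8% of all windows. The MYC-type E-box CACGTG, which the CANNTG search also covers, was in none of the 5, against 6.34% of all windows. These matches describe letters in a window and not bound sites.

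Levels of different genes can be compared only per length, and the rule for length changed their order. Using the union of annotated exons, CD1B was the highest member in the controls at 181 ± 5.07 CPM per kb, followed by CD1E at 125 ± 4.47 CPM per kb (SD, n = 3). CD8A (26.7 ± 6.82) and CD1A (22.0 ± 0.791) came next and overlapped each other over the libraries. CD1C stood at 17.3 ± 0.549 CPM per kb, and CD8B was lowest at 0.442 ± 0.115. CD4 (7.67 ± 0.328) and CD1D (7.30 ± 1.01) overlapped in the controls. With AURKB shRNA they no longer did, CD1D standing at 6.83 ± 0.148 and CD4 at 2.85 ± 0.138 CPM per kb, while the order of the other members was the same.

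The FPKM values that the authors deposited place CD1E much lower, at 32.7 FPKM in the controls beside 148 FPKM for CD1B. CD1B exceeded CD1E by 4.52-fold on that scale and by 1.45-fold per kb of exon union, while in plain reads CD1E was the higher. The length behind the FPKM of CD1E was 8543 bp, more than its whole gene span of 3858 bp and 3.88 times its exon union of 2203 bp. It equalled the summed length of all distinct exon entries of its 15 annotated transcripts, in which overlapping exons count repeatedly. For CD4 the FPKM length was 1.96 times the exon union, for CD8A 1.52 times, and for CD1A and CD1D, each with 1 transcript, it was the exon union itself. Ratios of FPKM between the arms do not depend on this length, which is the same in every library. Where a constant is added before the log they do, since it weighs more on a lower FPKM. The log2 fold change of CD4 was -1.04 on log2(FPKM + 1) and -1.42 on log2(FPKM + 0.1).

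**Figure D3:**
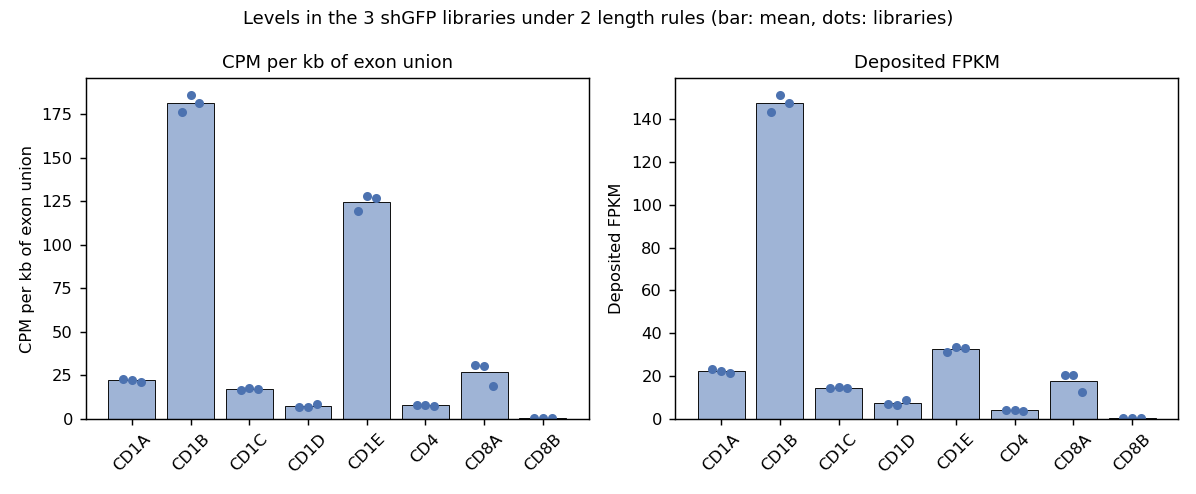
Levels of the 8 genes in the 3 shGFP libraries, in CPM per kb of exon union (left) and in the deposited FPKM (right), both axes starting at 0; bars are means and dots are libraries. CD1E stands at 125 on the left and at 32.7 on the right, close to CD1A at 22.4, while CD1B leads on both.

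Of the 6 tested genes around the CD1 cluster 5 fell, each by more than any CD1 gene, a difference in size that was not tested. These 5 may not be separate signals, as some of them overlap and others lie close together on the same strand. Within 200 kb of the cluster 18 other genes are annotated, and the 6 tested had a median log2 fold change of -1.23. Of all tested genes, 10.9% were called lower. The number of neighbours called lower stayed at 5 under each scaling, with the replicate number as a block and without any 1 library. Between CD1D and CD1A, the pseudogene RP11-404O13.4 (158195633 to 158196131) was at 7.36, 8.73 and 9.75 CPM in the controls and at 3.85, 3.12 and 3.89 CPM with AURKB shRNA. Its log2 fold change was -1.25 ± 0.17 (SE, edgeR adjusted p = 3.25e-03). The noncoding RNA RP11-404O13.5, 13.0 kb from CD1D on the same strand as that pseudogene, fell by 0.83 ± 0.13 on the log2 scale (adjusted p = 5.35e-03).

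Beyond CD1E lies a group of olfactory receptor genes, which are normally read in sensory neurons. The antisense RNA RP11-144L1.4 (158474454 to 158494886, 116.9 kb from CD1E) was at 26.4, 25.8 and 26.6 CPM in the controls and 11.7, 11.7 and 10.3 CPM with AURKB shRNA. The fitted log2 fold change was -1.22 ± 0.08 (edgeR adjusted p = 3.72e-04). The receptor gene OR10R2 (log2 fold change -1.38 ± 0.19) and the pseudogene OR10R3P (-1.98 ± 0.20) lie within its span on the other strand. The strand setting of the counting was not found in the labels, so reads of these 3 genes cannot be told apart and they may be a single signal. KIRREL, a cell adhesion gene on the other side of the cluster, was at 49.6 CPM in shGFP replicate 1 and at 29.4 to 32.6 CPM in the other libraries, and was not called (log2 fold change -0.29 ± 0.18, adjusted p = 0.286).

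**Figure D4:**
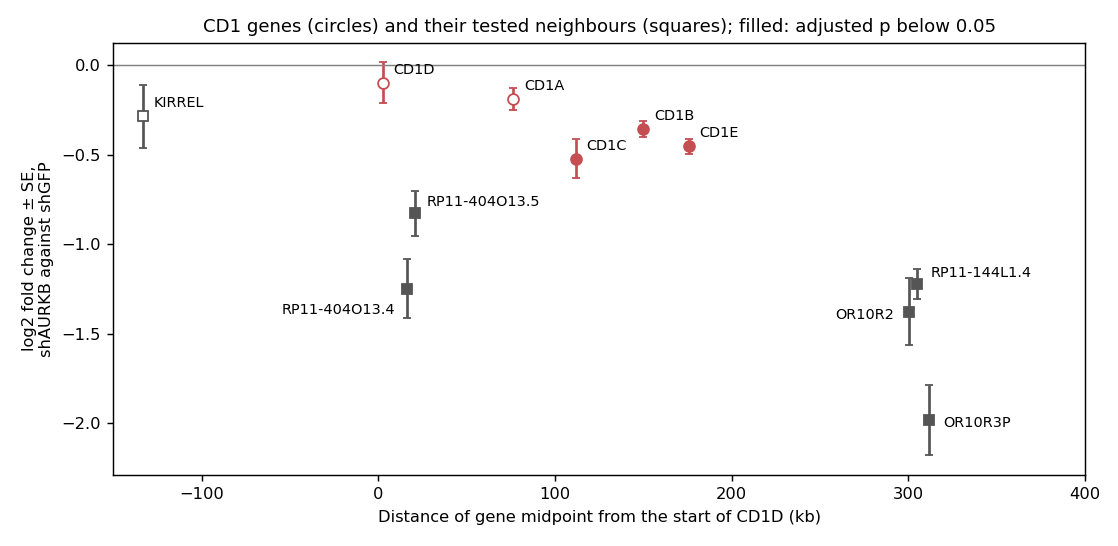
Log2 fold change ± SE of the 5 CD1 genes (circles) and the 6 tested neighbours within 200 kb (squares), by distance of the gene midpoint from the start of CD1D in kb; filled symbols were called. The CD1 genes lie between -0.52 and -0.10, and the called neighbours between -1.98 and -0.83.

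Around CD4, neighbours were called in shares near those of all genes, and around the CD8 genes few were tested. Near CD4, 28 genes were tested, 4 were called higher and 3 lower, beside 12.5% and 10.9% of all tested genes, with a median log2 fold change of 0.02. GPR162, an orphan receptor gene that starts 737 bp after CD4 on the same strand, was at 5.38, 5.92 and 6.69 CPM in the controls and 3.41, 3.32 and 3.03 CPM with AURKB shRNA. It fell by 0.88 ± 0.15 (edgeR adjusted p = 8.24e-03), PTMS by 0.64 ± 0.13 and the cell cycle gene CDCA3 by 0.22 ± 0.06. MLF2, USP5, PTPN6 and EMG1 rose by 0.21, 0.28, 0.34 and 0.30. Of these small changes, the calls of MLF2, CDCA3 and EMG1 were each lost in 7 to 9 of 16 alternatives, and those of USP5 and PTPN6 without shAURKB replicate 2 (adjusted p = 0.0529 and 0.0545). Near CD8A and CD8B, 8 genes were tested, 1 was called higher and 2 lower, beside the same shares of all tested genes. RMND5A, the nearest tested gene to CD8A and a subunit gene of an E3 ligase, rose by 0.43 ± 0.04, while RGPD1 and PLGLB1, which belong to families of near-identical copies, had log2 fold changes of -0.79 ± 0.05 and -1.22 ± 0.22.

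Other genes of the cortical stage, at which CD1 and both coreceptors are made, were called lower for the most part. Of 12 listed, 10 were tested, 6 were called lower and 2 higher, beside 10.9% and 12.5% of all tested genes, and the median log2 fold change was -0.36. This list too was chosen with earlier results of these data known, so its shares are a description only. The largest changes of the list were in the neighbouring genes of the V(D)J recombinase, RAG1 (log2 fold change -1.80 ± 0.09) and RAG2 (-1.98 ± 0.20). RAG1 was at 56.9, 48.3 and 53.8 CPM in the controls and 15.2, 14.04 and 16.2 CPM with AURKB shRNA. DNTT, the terminal transferase gene, fell by 0.34 ± 0.06 and CCR9, a thymic homing receptor gene, by 0.62 ± 0.17, a call lost in 6 of 16 alternatives, among them those without shAURKB replicate 2 or 3 or any 1 control library (adjusted p = 0.0777 to 0.11). Of the 2 genes called higher, AQP3 rose by 0.31 ± 0.05 (edgeR adjusted p = 0.00591). Its arms did not overlap, and DESeq2 and limma-voom called it higher too. SH2D1A, the SAP adaptor gene, was the other (1.22 ± 0.35, edgeR adjusted p = 0.0457). The shAURKB values of SH2D1A were 264, 270 and 104 CPM, the last close to its control values of 101, 102 and 72.4 CPM. Its call was lost in 10 of 16 alternative analyses.

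Genes of the stages before and after showed no common direction. Of 13 genes of early progenitors and double-negative cells, 5 were tested, with a median log2 fold change of -0.27. With edgeR 0 were called, beside 23.3% of all tested genes called in either direction. So few tested genes cannot tell these shares apart. At an unadjusted p under 0.05 there were 3 (1 higher, 2 lower). DESeq2 called 1 of them lower and limma-voom 0. That gene was IL7R, the interleukin-7 receptor gene, with a log2 fold change of -1.41 ± 0.43 (edgeR adjusted p = 0.0544, DESeq2 adjusted p = 0.00356). IL7R was at 21.5, 6.60 and 22.2 CPM in the controls and 5.78, 5.95 and 7.21 CPM with AURKB shRNA, so shGFP replicate 2 lay with the shAURKB libraries, and without it edgeR called the gene (adjusted p = 0.00225). Of 10 genes of mature single-positive cells, all were tested, 2 were called higher and 2 lower, beside 12.5% and 10.9% of all tested genes. DESeq2 called 1 higher, KLF2. KLF2, a factor that directs exit from the thymus, rose by 1.20 ± 0.11, from 6.34 to 14.6 CPM. S1PR1, the exit receptor gene that KLF2 is known to induce, fell by 0.78 ± 0.10.

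Regulators of the coreceptor genes moved in both directions, more of them upward. Of 19 tested, 6 were called higher and 2 lower, beside 12.5% and 10.9% of all tested genes, with a median log2 fold change of 0.04. GATA3, which favours the CD4 fate, was at 118, 115 and 118 CPM in the controls and 170, 178 and 172 CPM with AURKB shRNA. It rose by 0.57 ± 0.04 (edgeR adjusted p = 4.34e-04). TCF3, the E2A factor gene, rose by 0.41 ± 0.05 and SMARCA4, the ATPase of the BAF complex that acts at the CD4 silencer, by 0.40 ± 0.03. RUNX1, which represses CD4 in early thymocytes through that silencer, was called at 0.28 ± 0.08 (edgeR adjusted p = 0.0483), with overlapping arms. That call was lost in 10 of 16 alternatives (adjusted p = 0.0512 to 0.207), including limma-voom, upper-quartile scaling and those without shGFP replicate 1 or 2 or shAURKB replicate 2 or 3. RUNX3, the factor of CD8 cells, was at -0.06 ± 0.22 and was not called (adjusted p = 0.866), with a sign that turned in 3 of the 6 fits with a library left out. ZBTB7B, which encodes the CD4 fate factor ThPOK, had 5 reads in all controls together and none with AURKB shRNA, too few to test.

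Partners of the coreceptors at the membrane changed in both directions. Of 11 tested, 5 were called higher and 2 lower, beside 12.5% and 10.9% of all tested genes. The 7 calls became 4 with upper-quartile scaling and 4 with the replicate block. The phosphatase gene PTPRC (CD45), which activates LCK, fell by 0.41 ± 0.05 and the kinase gene FYN by 0.40 ± 0.06, while the kinase gene ZAP70 rose by 0.25 ± 0.03. LCK itself, the kinase bound by the tails of CD4 and CD8A, was at 613 and 671 CPM (0.13 ± 0.03, edgeR adjusted p = 0.0146), a call lost in 5 of 16 alternatives, upper-quartile scaling among them. Of 10 genes for the MHC ligands, 4 were tested, with a median log2 fold change of 0.02. Among them 0 were called by edgeR, DESeq2 or limma-voom, and 0 had an unadjusted p under 0.05. Over all tested genes edgeR called 23.3% in either direction, and so few tested ligand genes cannot be told apart from that share. HLA-C had the smallest p (log2 fold change 0.18, adjusted p = 0.291). The class II genes HLA-DRA, HLA-DPB1, HLA-DQA1 and HLA-DQB1, which encode the ligand of CD4, had no read in any library.

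In the machinery that assembles CD1 and loads it with lipid, 5 of 17 tested genes were called higher and 0 lower with edgeR, beside 12.5% and 10.9% of all tested genes, with a median log2 fold change of 0.06. AP2S1, a subunit gene of the adaptor that draws CD1 into endosomes, rose by 0.47 ± 0.07, AP3D1, of the adaptor that takes CD1B on to lysosomes, by 0.27 ± 0.05, and the chaperone gene CALR by 0.46 ± 0.04. At an unadjusted p under 0.05 there were 2 lower genes, CTSS and GM2A. The cathepsin gene CTSS (-0.56 ± 0.17, edgeR adjusted p = 0.0584) was called lower by DESeq2 and by limma-voom, and GM2A, a lipid transfer protein gene, was at -0.18 (edgeR adjusted p = 0.0585). B2M, the light chain of CD1, was at 137, 139 and 127 CPM in the controls and 123, 302 and 134 CPM with AURKB shRNA. A single library, shAURKB replicate 2, was high, and the log2 fold change of 0.47 ± 0.33 was not called (edgeR adjusted p = 0.34) and became -0.06 without that library. Of the related class I-like genes MR1, HFE, FCGRT and PROCR, FCGRT (0.08) and MR1 (-0.12) were tested and neither was called (adjusted p = 0.587 and 0.635).

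**Figure D5:**
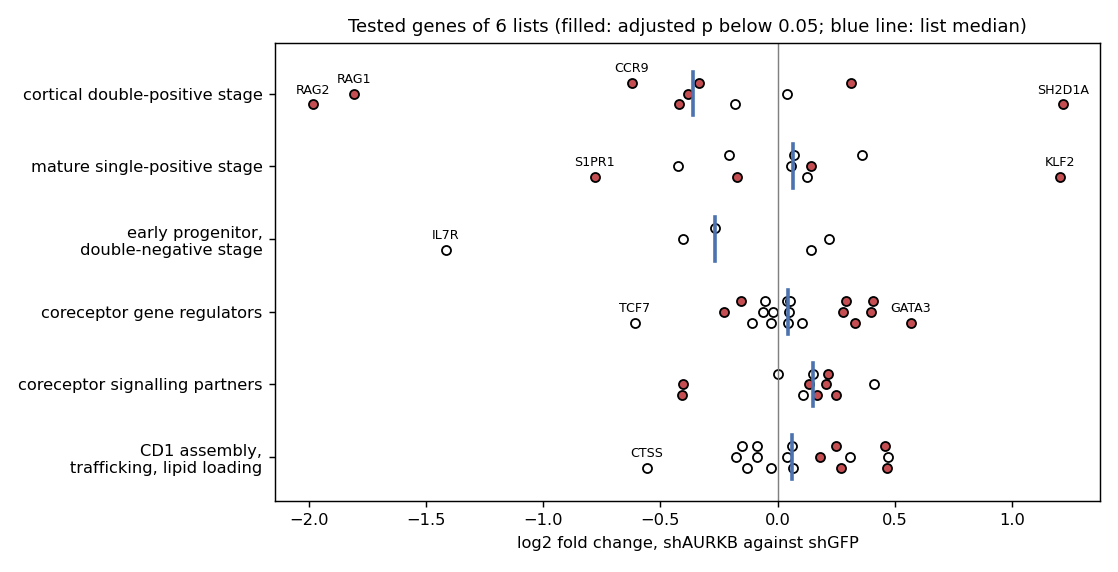
Log2 fold change of each tested gene in 6 lists (horizontal axis); filled points were called and blue lines are list medians. The cortical list has its median at -0.36, and the 3 lists of regulators, signalling partners and CD1 assembly have medians between 0.04 and 0.15.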

How the data were processed

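RNA of 6 CUTLL1 cultures was sequenced. The authors deposited whole-number counts and FPKM per Ensembl gene; HISAT2 2.0.4, StringTie 1.3.0 and edgeR on GRCh38 are named per the submitters' processing notes, without their roles. The FPKM that the authors deposited rest on a length that equals the sum of distinct GENCODE 29 exon entries in 88.8% of 13426 genes (within 2%), so levels between genes use the exon union instead. Counts were filtered (filterByExpr, minimum count 10, minimum total 15), TMM-scaled and tested in R 4.3.3 by edgeR 4.0.16 (glmQLFit and glmQLFTest), two-sided, with Benjamini-Hochberg adjustment over 14818 genes and a threshold of 0.05. An SE is the estimate divided by the square root of F. Totals ran from 10154187 to 11922979 counts.

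The members and lists were chosen with earlier results of these data known. The naming rule took all members, AURKB, per list the 3 called genes with the largest change (or the smallest p where none was called), called genes within 200 kb of a member, and the 3 genes most like CD4. Other genes were named after their values were seen. A gene of the mature-stage list is not reported here by name. The fitting script was tested on simulated counts. As alternatives, the counts were scaled by RLE or by upper quartile, tested by DESeq2 1.42.0 or by limma-voom (limma 3.58.1), filtered otherwise, blocked by replicate number and refitted without each library. The FPKM were tested by limma-trend as log2(FPKM + 1) and log2(FPKM + 0.1), with a minimum of 0.5 FPKM in 3 libraries. The log2(FPKM + 1) fit was also run without that minimum.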

Additional observations from a re-analysis of the deposited data

How the results depend on the processing

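CD4, CD1B and CD1E were called, and CD8A was not, under all 16 alternatives; their values ran from -1.48 to -1.04 for CD4, where the shallowest is on the log2(FPKM + 1) scale. CD1A, not called at -0.19, was called at -0.24 with upper-quartile scaling, at -0.23 and -0.24 on log2(FPKM + 1) and log2(FPKM + 0.1), and at -0.23 without the FPKM filter. Leaving out 1 library gave -0.64 to -0.46 for CD1C, with the call lost in 2 of 6 cases, and -0.17 to 0.02 for CD1D. Leaving out 1 library also turned uncalled genes in sign: RUNX3 ran from -0.33 to 0.07, positive without shGFP replicate 2, shAURKB replicate 1 or shAURKB replicate 2; B2M ran from -0.06 (without shAURKB replicate 2) to 0.70; MR1 ran from -0.21 to 0.03 (without shGFP replicate 1). The number of genes called lower, 1609, was 998 to 1056 with 1 library fewer, 1027 with the replicate block and 2087 with upper-quartile scaling, and 914 genes were higher on log2(FPKM + 1) without a filter, against 1847. Called signalling partners numbered 7, and 4 with upper-quartile scaling or the replicate block. Called early-stage genes numbered 0, 2 with upper-quartile scaling, and 0 to 1 with a library left out. Called mature-stage genes numbered 4, and 2 to 3 with a library left out. Called T-cell identity genes numbered 3, 0 with upper-quartile scaling or the replicate block, and 0 to 2 with a library left out. CD1B over CD1E was 1.45-fold, 4.52-fold in FPKM and 0.92-fold in reads, and CD8A over CD4 was 3.46-fold, 4.45-fold in FPKM and 2.74-fold in reads. These causes were not tested, beyond the length rule shown. Same-numbered libraries of the arms did not deviate together (correlations -0.09, -0.03 and -0.04), so the block is given as a check only; it left CD4 at -1.43, CD1C at -0.53 and CD8A at -0.22 ± 0.07 (SE, edgeR adjusted p = 0.107). Depth limits CD8B most.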

Other observations

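CD8A was lowest in replicate 3 of both arms. That replicate lay below the nearer of the others by 0.70 on the log2 scale in the controls and by 0.42 with AURKB shRNA. Gaps at least this large in both arms were found in 20 tested genes, 0.13%, CD8A included. SH2D1A was not among them, although replicate 3 was its lowest library in both arms too. The share of genes with replicate 3 lowest by any gap was not counted. The replicate numbers are not known to mark shared cultures or days.

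TCF7, the T-cell factor gene that acts with LEF1 at the coreceptor genes and was also named after its values were seen, was at 934, 957 and 991 CPM in the controls and 745, 370 and 772 CPM with AURKB shRNA. The arms did not overlap, but shAURKB replicate 2 lay far below the rest, and the log2 fold change of -0.61 ± 0.25 (SE) was not called (edgeR adjusted p = 0.124). Without that library it was called (adjusted p = 0.00714). B2M was highest in that same library.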
